A study of Mus musculus with 3 samples.

Results

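Wide accessible regions were defined as places where DNase hotspots of at least 2000 bp were found in every replicate. Hotspots are stretches of chromatin with more DNase I cutting than their surroundings, as the authors called and deposited them. Hotspots of the 3 replicates that shared at least 1 bp were joined, and a joined region on the autosomes or X was kept where each replicate had at least 1 hotspot of 2000 bp or more in it. Of 302596 merged regions, 312 met this rule. Of all merged regions, 130798 had a hotspot in every replicate. The members were selected on hotspot width, so their widths are given below as a description and with no test.

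The series is a single group of DNase-seq libraries from Müller cells, the radial glia of the retina, kept as primary cells of B6NCrl mice 12 days after birth. The label is a healthy postnatal pool of male and female animals, with no treatment, transgene or sort named. The 3 biological replicates have separate biosample labels and share 1 donor label, so the spread between them measures these samples and may be partly technical. The nuclei and DNase protocol they point to was written for cultured cells.

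DNase I cuts where DNA is not covered by nucleosomes, which is mostly at promoters and enhancers. A typical accessible site is about as long as the DNA freed by the loss of a nucleosome, so a hotspot that runs on for kilobases joins several such sites. Long stretches of this kind are known from CpG islands, the unmethylated CG-rich promoters of broadly expressed and developmental genes, and from dense enhancer clusters near genes that define a cell's identity.

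Strong sites inside 7 members, picked from a longer set of such windows, are shown first. They let sequence in members at promoters be read beside that in members away from them. A window in a member at a promoter need not lie within 1 kb of the start site. Each is the 150 bases round the middle of the site that ranked highest in the replicate where it ranked lowest, on the plus strand of mouse GRCm38.p6 (the RefSeq copy of mm10). Capitals mark matches, on either strand, to 16 short consensus motifs that were searched, here those of the families SP and KLF (GGGCGG), TEAD (GGAATG), AP-1 (TGANTCA) and CTCF (by name). None of these windows overlaps an annotated exon.
Ubtf (intron, chr11:102316796-102316945): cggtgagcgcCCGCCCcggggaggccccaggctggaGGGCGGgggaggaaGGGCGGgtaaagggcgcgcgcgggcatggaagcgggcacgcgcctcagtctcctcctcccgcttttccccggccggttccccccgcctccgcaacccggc
Hes1 (upstream, chr16:30064106-30064255): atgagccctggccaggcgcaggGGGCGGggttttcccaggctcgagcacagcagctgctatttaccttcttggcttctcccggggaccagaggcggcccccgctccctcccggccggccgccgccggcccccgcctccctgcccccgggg
Junb (downstream of its coding transcript, chr8:84976566-84976715): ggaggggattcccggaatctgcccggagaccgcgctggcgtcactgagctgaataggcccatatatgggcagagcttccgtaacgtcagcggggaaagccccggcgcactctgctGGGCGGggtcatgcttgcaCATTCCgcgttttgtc
Downstream of Sox2 (chr3:34664406-34664555): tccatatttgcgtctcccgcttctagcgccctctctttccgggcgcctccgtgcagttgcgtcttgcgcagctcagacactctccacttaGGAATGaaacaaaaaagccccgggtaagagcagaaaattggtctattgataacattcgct
Kdm6b (intron, chr11:69410716-69410865): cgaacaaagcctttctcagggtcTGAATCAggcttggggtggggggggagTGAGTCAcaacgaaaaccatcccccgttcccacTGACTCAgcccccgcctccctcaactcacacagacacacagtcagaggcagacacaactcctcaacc
118055 bp from Tmem161b (chr13:84348096-84348245): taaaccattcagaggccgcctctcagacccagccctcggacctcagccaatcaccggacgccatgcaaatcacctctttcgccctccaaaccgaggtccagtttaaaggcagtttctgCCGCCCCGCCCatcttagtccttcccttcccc
3′ end of Pmepa1, intron, nearest coding start Zbp1 (chr2:173229916-173230065): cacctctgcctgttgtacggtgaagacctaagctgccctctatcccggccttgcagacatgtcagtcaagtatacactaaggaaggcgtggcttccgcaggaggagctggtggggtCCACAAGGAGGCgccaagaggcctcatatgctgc

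The Ubtf window held 19 CpG dinucleotides and 3 SP and KLF matches. The Kdm6b window held 4 CpG dinucleotides and 3 AP-1 matches, and the Pmepa1 window held 5 CpG dinucleotides and the CTCF match. Windows not shown included those of Jun, the region 2468 bp from Hes1 and the Cic intron. These had no match and held 9, 12 and 16 CpG dinucleotides. The window of Arid2 held 18, and that of the region 7374 bp from the Pmepa1 start held 6. CpG counts in windows of members at promoters and of members away from them thus overlapped. A match is a description of the letters and does not show that a factor is bound.

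Members were between 2064 and 13481 bp long, with a median of 2841 bp, and together they covered 1019 kb. The median longest hotspot in a member was 2606 bp in replicate 1, 2296 bp in replicate 2 and 2508 bp in replicate 3. Replicate 2 had the narrowest hotspot in 182 members, replicate 3 in 98 and replicate 1 in 33, including ties. In 35 members every replicate reached 3000 bp, and in 7 every replicate reached 4000 bp. Widths ranked the members similarly but not equally in the replicates, with a Spearman's rho of 0.637 for replicates 1 and 2, 0.603 for 1 and 3 and 0.520 for 2 and 3, across 312 regions that are not independent and were cut off at 2000 bp in each.

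The widest members, ordered by their narrowest replicate, lay at genes for transcription factors, chromatin regulators and signalling proteins. At Ubtf, the upstream binding factor of ribosomal RNA gene transcription, the longest hotspots were 4787, 4495 and 4867 bp in replicates 1, 2 and 3 (chromosome 11, 102316143 to 102321085). At Hes1, a repressor that Notch signalling turns on, they were 4582, 4474 and 4734 bp (chromosome 16, 30062580 to 30067631). In these 2 members the widest replicate was 1.08 and 1.06 times the narrowest.

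Jun encodes a subunit of AP-1, a factor that responds to growth factors and stress. Its longest hotspots were 4358, 4995 and 4338 bp (chromosome 4, 95049712 to 95054706). Junb, a related subunit, had 4802, 4274 and 6853 bp (chromosome 8, 84973828 to 84981617). The other members among the first 10 were at Arid2, a subunit of the PBAF chromatin remodeller (5645, 4148 and 4191 bp), Hivep2, a zinc finger factor (4330, 4336 and 4131 bp), Dusp4, a phosphatase of MAP kinases (4404, 3694 and 5119 bp), Ccn1, a secreted matrix protein (3749, 3634 and 3704 bp), an intron of Kdm6b, the H3K27 demethylase (3874, 3908 and 3721 bp), and a region 9371 bp from Sox2 (6345, 4401 and 7863 bp). The narrowest of these 30 hotspots was the one at Ccn1 in replicate 2.

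**Figure D1:**
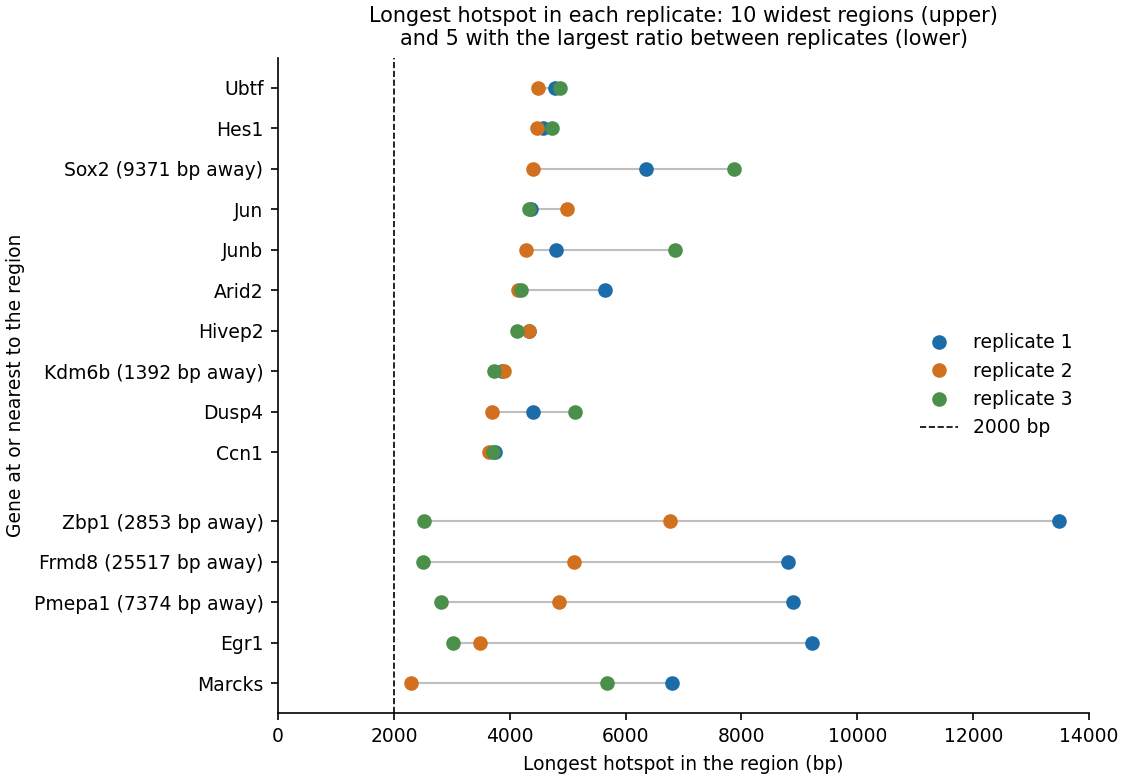
Longest hotspot in base pairs (horizontal axis) in replicates 1, 2 and 3 (coloured points joined by a grey line) for the 10 widest members and for the 5 with the largest ratio between replicates; the dashed line is 2000 bp. The points of Ubtf, Hes1, Hivep2 and Ccn1 nearly coincide, and those of the region nearest to Zbp1 run from 2520 to 13481 bp.

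The longest single hotspots were not the most alike. In the region over the 3′ end of Pmepa1, whose nearest coding start is Zbp1, the longest hotspot was 13481 bp in replicate 1, 6768 bp in replicate 2 and 2520 bp in replicate 3, a ratio of 5.35 (chromosome 2, 173221776 to 173235256). The other members with large ratios were at Neat1, a long noncoding RNA that builds nuclear paraspeckles (8796, 5112 and 2509 bp), in Pmepa1 itself 7374 bp from its start (8884, 4849 and 2815 bp), at Egr1 (9210, 3492 and 3024 bp) and at Marcks, an actin-binding substrate of protein kinase C (6797, 2296 and 5674 bp). Replicate 1 was widest in all 5, and replicate 3 narrowest in 4 of them. In the Zbp1 region replicate 1 had a single hotspot where replicate 3 had 10, and the replicates had 26, 24 and 20 peaks there: the number of peaks differed less than the length of the hotspots.

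The members nearest to the threshold show how fine the division was. Just inside were a second Kdm6b region (2051, 2001 and 2148 bp), the histone gene Hist2h4 (2003, 2039 and 2078 bp) and a region at the microRNA gene Mir21a (5052, 5062 and 2005 bp). Just outside were Cpne8, with 2059 and 2061 bp in replicates 1 and 3, and Tbx3, with 2048 and 2011 bp, both 1 bp short in replicate 2, and Rbm15, with 2100, 1997 and 2646 bp. The 3 regions just outside missed the rule by 1 to 3 bp, each in replicate 2.

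Replicates differed in how many wide hotspots they held. Hotspots of 2000 bp or more numbered 1465 of 268995 (0.545%) in replicate 1, 445 of 259028 (0.172%) in replicate 2 and 1586 of 161250 (0.984%) in replicate 3, a mean of 1165 ± 627 (SD, n = 3). Regions that missed the rule through a single replicate numbered 513 for replicate 2, 83 for replicate 3 and 16 for replicate 1. Of the 513, 90.3% were divided into more than 1 hotspot in replicate 2. The same held for 48.2% of the 83 in replicate 3 and 93.8% of the 16 in replicate 1. Pax6, a regulator of eye development, was among the 513 with 4341, 1700 and 4666 bp, as was Myc with 4310, 1809 and 4370 bp. Without replicate 2, 826 regions met the rule, and without replicate 1 or 3 the numbers were 330 and 395.

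Most members lay at promoters. A protein-coding start site was within 1 kb of 271 of the 312 (86.9%). A wide region reaches more start sites by its length alone, so the share was also taken from the middle of each region, and it was 81.4%. Among regions shared by all replicates whose longest hotspot in the narrowest replicate was at least 1000 but under 2000 bp (called 1 to 2 kb below), the share was 68.5% (67.1% from the middle, 5968 regions), and among those under 1000 bp it was 11.2% (10.3% from the middle, 124518 regions).

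Each replicate alone gave the same order. Of its own hotspots of 2000 bp or more, 81.0% in replicate 1, 78.2% in replicate 2 and 86.6% in replicate 3 were at promoters (mean 82.0% ± 4.29, SD, n = 3). Of hotspots of 1 to 2 kb the shares were 53.7%, 58.4% and 61.1% (57.7% ± 3.71), and of shorter ones 7.85%, 9.81% and 9.24% (8.97% ± 1.01). The values of the 3 width classes did not overlap. Within the members the share did not rise further with width: it was 87.2% of 227 members of 2000 to 2499 bp, 82.0% of 50 members of 2500 to 2999 bp and 91.4% of the 35 of 3000 bp or more, and from the middle 83.7%, 78.0% and 71.4%.

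**Figure D2:**
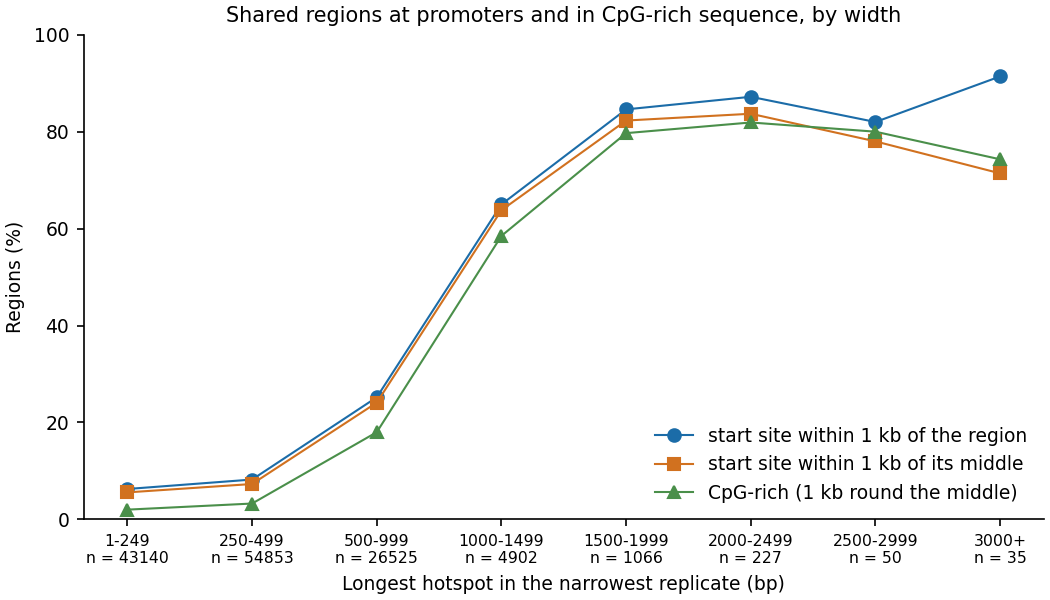
Percentage of shared regions (vertical axis) that have a protein-coding start site within 1 kb of the region (circles) or of its middle (squares), or whose middle 1 kb is CpG-rich (triangles), by the longest hotspot in the narrowest replicate (horizontal axis, with the number of regions). The shares rise from under 10% below 500 bp to above 80% at promoters from 1500 bp on, and the share from the middle is 71.4% in the widest bin.

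The members covered 316 protein-coding genes, counting every gene with a start site within 1 kb, which is 1.46% of the 21646 genes examined. One gene was covered by 227 members, 2 genes by 43 and 3 genes by 1, the member with Bet1l, Gm45785 and Ric8a (2171, 2022 and 2183 bp). Among the widest of these were Mbd6 and Ddit3, the latter a factor of the unfolded protein response (3724, 3614 and 3368 bp), Ncor1, a nuclear receptor corepressor, with Pigl (2954, 2682 and 2944 bp), and the imprinted genes Peg3 and Usp29 (3576, 2669 and 3662 bp). In 8 members a whole coding gene lay inside the region; these were Junb, Fos, Egr1, Ier2, Ccn2, Mt2, Cavin3 and Gm10645.

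Immediate early genes, which cells switch on within minutes of a stimulus, were the list with the highest share. Of 30 genes of AP-1 and the immediate early response, 8 (26.7%) were at a wide region, against 1.46% of all genes, and a further 15 were at a region of 1 to 2 kb, against 21.4% of all genes. The 8 were Jun, Junb, Fos, Fosl2, Egr1, Egr3, Ier2 and Nfil3. The median longest hotspot at the 30 promoters was 2146 bp in replicate 1, 1568 bp in replicate 2 and 2108 bp in replicate 3, and over all genes it was 706, 561 and 829 bp.

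Fos, the partner of Jun in AP-1, had longest hotspots of 7117, 6346 and 3394 bp and 14, 16 and 12 peaks (chromosome 12, 85471586 to 85480307). Its region reached 6417 bp downstream of the start site and so past the end of the gene. Egr1, a zinc finger factor, lay in a member on chromosome 18 (34858985 to 34868221) with 16, 17 and 11 peaks. Both had their widest hotspot in replicate 1 and their narrowest in replicate 3.

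The remaining immediate early members were narrower than these in their narrowest replicate, though not in every replicate. Egr3 had 3533, 2233 and 3170 bp, Nfil3, a bZIP repressor, had 4002, 2107 and 4060 bp, Fosl2 had 3335, 2125 and 2048 bp, and Ier2 had 2190, 2040 and 4162 bp. Of the list's other genes, Zfp36, Egr2, Socs3, Myc, Dusp6 and Jund had hotspots of 2000 bp or more in replicates 1 and 3 and not in replicate 2, where their longest were 1980, 1922, 1885, 1809, 1605 and 1187 bp. Batf, an AP-1 gene of lymphoid cells, had no hotspot in any replicate.

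**Figure D3:**
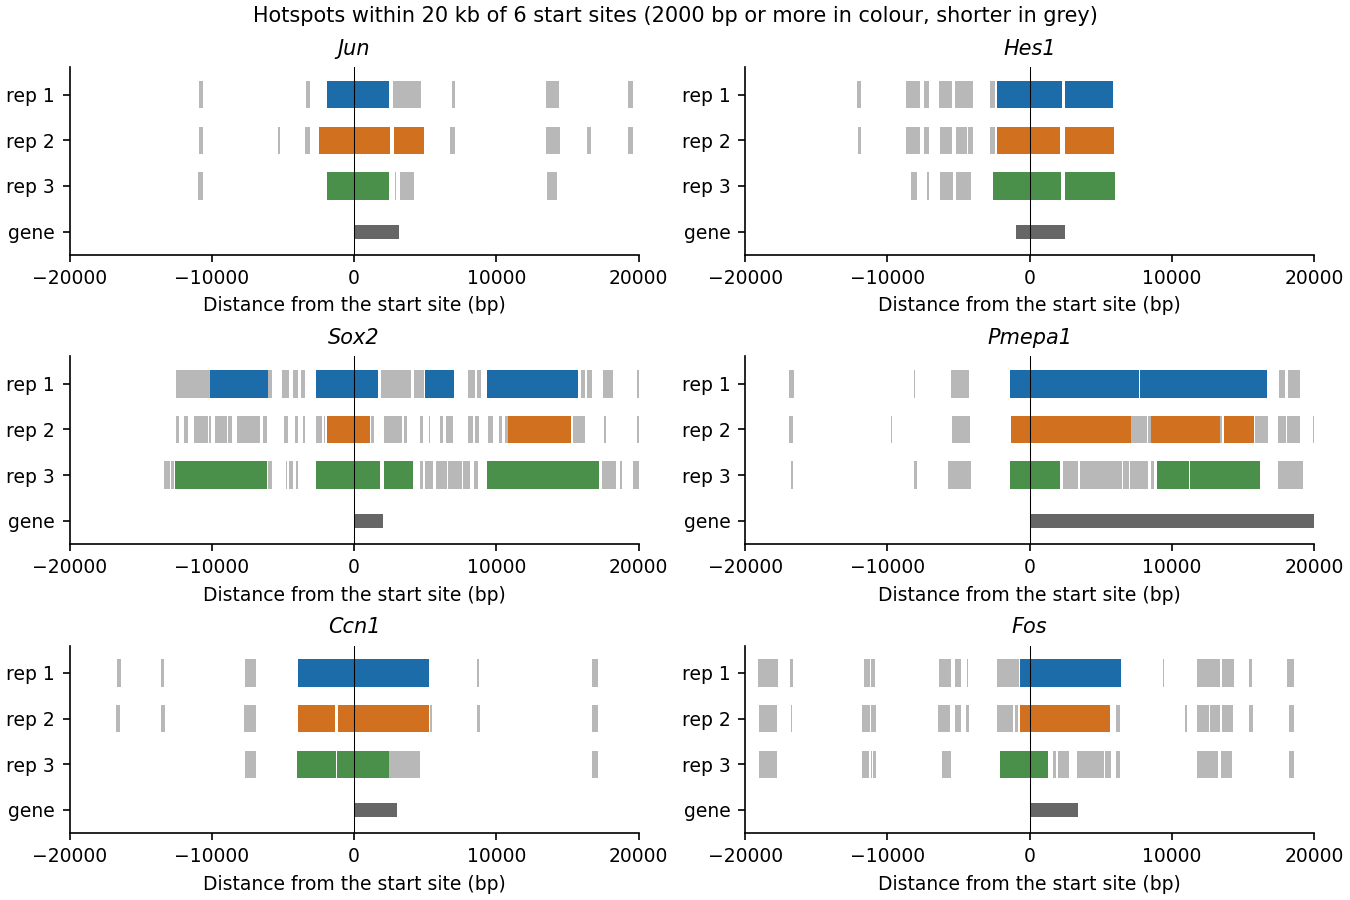
Hotspots within 20 kb of the start sites of Jun, Hes1, Sox2, Pmepa1, Ccn1 and Fos, with distance from the start site in base pairs on the horizontal axis (downstream to the right) and a row for each replicate; hotspots of 2000 bp or more are coloured, shorter ones grey, and the dark bar is the gene. Hotspots cover the start site of every gene in all 3 replicates, and the stretch downstream of Fos is continuous in replicates 1 and 2 and divided in replicate 3.

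Genes known from Müller glia and retinal progenitors were represented by their transcription factors. Of 38 Müller glia genes, 5 (13.2%) were at a wide region: Hes1, Sox2, Id3, Nfib and Ccn1. Of 24 retinal progenitor genes, 4 (16.7%) were: Hes1, Sox2, Six6 and Nr2e1. Every one of the 38 Müller genes had some hotspot at its promoter in every replicate. So did all genes of the Notch, YAP and TEAD, mesenchymal and matrix, cell cycle and housekeeping lists, and 15829, 15630 and 15180 of all 21646 genes had in replicates 1, 2 and 3. The background for both lists is again 1.46%.

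Sox2, which keeps neural progenitors and glia in their state, had 4348, 3020 and 4475 bp at its promoter (chromosome 3, 34647732 to 34652227). Six6, an eye-field homeobox factor, had 5261, 3229 and 3829 bp in a member shared with 4930447C04Rik. Nr2e1, a nuclear receptor of retinal and neural stem cells, had 4598, 2776 and 2640 bp. At Sox2 and Six6 replicate 2 was the narrowest.

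Id3, an inhibitor of basic helix-loop-helix factors, had 3538, 2370 and 2439 bp. Nfib, a nuclear factor I gene tied to gliogenesis, had 2239, 2239 and 3069 bp. The metabolic and transport genes of the Müller list were narrower. Glul, which encodes glutamine synthetase, had 1577, 1297 and 2480 bp, Rlbp1, which encodes the retinaldehyde-binding protein, had 910, 738 and 1127 bp, Slc1a3, a glutamate transporter, had 785, 685 and 870 bp, and the water channel Aqp4 had 602, 538 and 624 bp. Of 38 genes, 8 were at regions of 1 to 2 kb and at no wide region, a share near the 21.4% of all genes. The median longest hotspot over the list was 1096, 857 and 1337 bp, and over all genes 706, 561 and 829 bp.

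Vim, an intermediate filament gene of glia, missed the rule only in replicate 1, with 1695, 2153 and 2160 bp. Pax6, Lhx2 and Rax, homeobox factors of the eye field, missed it only in replicate 2. Six3, another of them, missed it only in replicate 3, with 4884, 2157 and 987 bp. Sox9, a glial factor, had 1285, 1283 and 2409 bp.

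Pathway lists had fewer members. In the Notch pathway, through which neighbouring cells hold each other in a glial or progenitor state, 2 of 22 genes (9.09%) were at a wide region: Hes1 and the coactivator Maml1 (2074, 2076 and 2153 bp). Ligand Jag1 (4507, 1242 and 2585 bp), the DNA-binding effector Rbpj (2500, 1560 and 3564 bp) and the inhibitor Numbl (2221, 1955 and 2038 bp) missed it in replicate 2. The receptor Notch1 had 1031, 895 and 4775 bp.

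The YAP and TEAD pathway senses cell contact and tension. Of its 18 genes, 2 (11.1%) were at a wide region, against 1.46% of all genes, and both are known targets. Ccn1 had the widths given above and Ccn2, a related matrix protein, had 5336, 4027 and 2237 bp (chromosome 10, 24595007 to 24600385). The coactivators Yap1 (2331, 850 and 2174 bp) and Wwtr1 (2261, 1891 and 2170 bp) missed the rule in replicate 2. The DNA-binding partner Tead1 had 2005, 1923 and 1908 bp.

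Across gene families, transcription factor genes were at a member more often than genes as a whole. Of 314 genes in 22 factor families, the Zfp genes left out, 23 (7.32%) were at a wide region, against 1.46% of all genes. None of the 39 Hox genes among them was. The 23 included 2 of 4 ID genes (Id2 and Id3), 2 of 4 EGR genes, 4 of 18 AP-1 and ATF genes and 3 of 17 KLF genes (Klf7, Klf10 and Klf13). Klf10 had 4134, 3445 and 4084 bp, and the glucocorticoid receptor gene Nr3c1 had 3222, 3195 and 3382 bp.

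The Zfp genes, zinc finger factors counted apart, had 6 of 394 (1.52%) at a wide region, near the background. Of 79 genes of cytosolic ribosomal proteins, 1133 olfactory receptors, 328 vomeronasal receptors and 53 keratins none was. Of 107 genes of the Wnt, FGF, BMP and feedback families, 4 (3.74%) were: the ligand Wnt5a (2493, 2923 and 2985 bp), the receptors Fgfr2 and Bmpr2, and Dusp4. The factors Mnt (3692, 3585 and 3583 bp), which opposes MYC, and Sox6 (3000, 2194 and 2998 bp) were among the 23.

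Lists for other cells and for basic functions gave a mixed picture. None of 24 rod, 15 endothelial or 14 oligodendrocyte genes and none of 28 liver, muscle and germline genes was at a wide region; at the background of 1.46%, lists of this size would hold less than 1 such gene each. None of 30 cell cycle genes was either, although every one had a hotspot in each replicate. Of the 30, 13 were at regions of 1 to 2 kb, against 21.4% of all genes. Of 20 housekeeping genes 2 were, a larger share than the background, Gapdh (3455, 3251 and 2664 bp) and Actb (2501, 2419 and 2312 bp).

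Single genes came from 3 further lists, too few to describe any of these lists. They made up 3.70%, 3.85% and 4.55% of the lists in the order below, against 1.46% of all genes. Irx5, a homeobox factor of bipolar cells, was the member among 27 genes of retinal neurons (2768, 3777 and 3255 bp), and Thbs1, which encodes thrombospondin, was the member among 26 mesenchymal and matrix genes (5180, 2042 and 2005 bp). Runx1, a haematopoietic factor, was the member among 22 microglia and macrophage genes (2535, 2047 and 2935 bp). The other microglia genes were narrow, the next widest being Irf8 with 1032, 726 and 1276 bp.

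Microglia and macrophage genes differed between replicates in presence. All 22 had a hotspot at the promoter in replicates 1 and 2, and 10 of 22 had in replicate 3, where Spi1, Cx3cr1, C1qa, Trem2 and Tyrobp had none. In each gene's widest region, Runx1 left out, the longest hotspot in replicate 1 ran from 64 to 1032 bp. The part of such cells in the widths was not tested, and in bulk libraries fewer cells of a type and less accessible chromatin per cell cannot be told apart. Of 24 rod genes, 6 had a hotspot in each replicate, and Nrl, Crx and Gnat1 had none. Over all 21646 genes, 15829, 15630 and 15180 had one in replicates 1, 2 and 3. Replicate 3 also had the fewest hotspots in all, 161250 against 268995 in replicate 1 and 259028 in replicate 2.

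**Figure D4:**
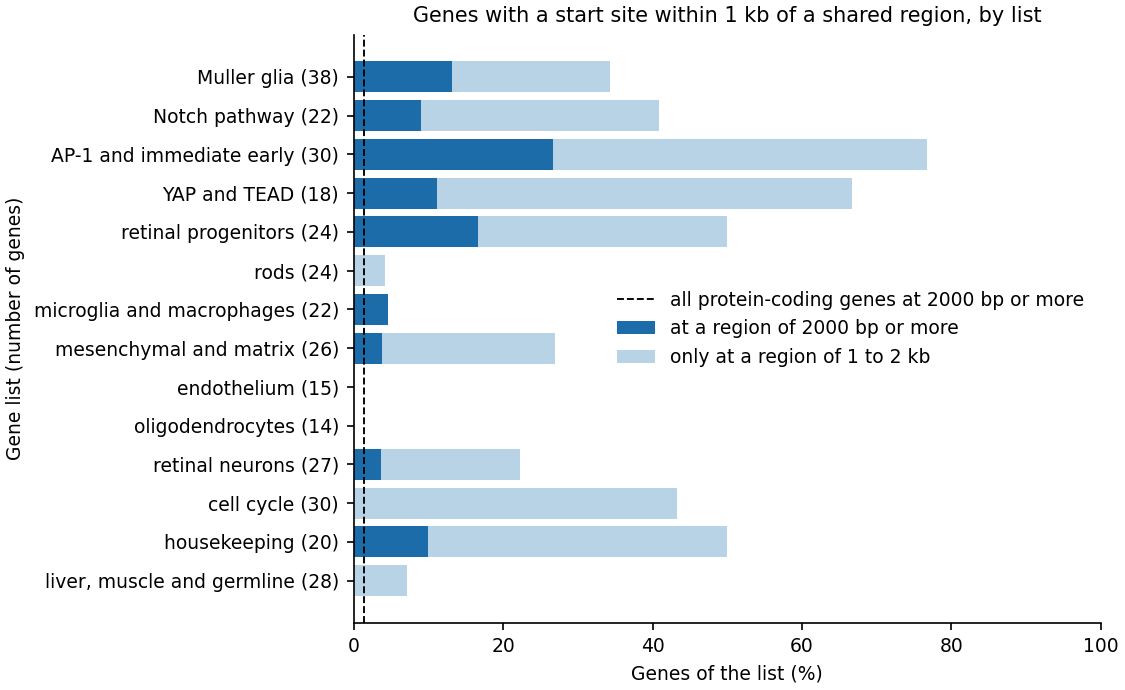
Percentage of the genes of each list (horizontal axis; number of genes in brackets) with a start site within 1 kb of a member (dark bars) or only of a shared region of 1 to 2 kb (light bars added to them); the dashed line is the 1.46% of all protein-coding genes at a member. The AP-1 and immediate early list has the longest dark bar at 26.7%, and the cell cycle list has a light bar only.

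The 41 members without a coding start site within 1 kb lay 1275 to 306522 bp from the nearest one. Their middles were in introns in 12 and between genes in 29, and none was in a coding gene's exon. Of the 41, 19 were within 10 kb of a coding start and 12 were farther than 50 kb. A long noncoding RNA started within 1 kb of 12 of them, which left 29 members with neither.

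Several of these lay beside another member. The region 2468 bp from Hes1 had 3367, 3382 and 3546 bp and was parted from the promoter member by 176 bp. The 2 regions at Kdm6b, 1392 and 3567 bp from a start, were 4958 bp apart. Within Pmepa1, a negative regulator of TGF-beta signalling, 2 members were parted by 1 bp, and another, the region nearest to Zbp1, lay 24507 bp away. In all, 17 members had another within 50 kb, at Hes1, Sox2, Six6, Nr2e1, Ccn1, Kdm6b, Pmepa1 and Tex44. Allowing hotspots up to 150 bp apart to merge gave 309 regions in place of 312.

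The Pmepa1 promoter member had 9028, 8469 and 3501 bp and 18, 17 and 19 peaks, and held 14 reproducible sites, the most of any member (chromosome 2, 173268817 to 173277888). A reproducible site is a place where peaks of all 3 replicates overlap. In replicate 3 this member was divided into 9 hotspots. Its peaks there were nonetheless the most numerous of the replicates.

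Noncoding RNA genes lay at other members away from coding starts. Besides Neat1, they were Mir22 with its host gene (3779, 2607 and 3711 bp), Mir21a, and Paupar near Pax6 (2522, 2059 and 2231 bp). The members farthest from any coding start were 306522 bp from Spry2 (2436, 2354 and 2376 bp) and 238558 bp from Zdhhc25 (2372, 2360 and 2159 bp). The noncoding gene 9330188P03Rik starts within 1 kb of the former. Distance does not show which gene a region acts on.

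Other wide regions away from any coding or long noncoding start can be set beside these. The region 118055 bp from Tmem161b had 3557, 2985 and 3604 bp, an intron of Cic, a repressor in receptor tyrosine kinase signalling, had 2624, 2634 and 2644 bp, and the regions 8449 bp from Camk2n1 and 10551 bp from Copz2 had 2503, 2501 and 2608 bp and 3231, 2441 and 2595 bp. The Cic and Camk2n1 regions were a single hotspot in every replicate.

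Each member held several peaks, the 150 bp sites that the authors called within hotspots. The members had 1757, 1778 and 1525 peaks in replicates 1, 2 and 3, with medians of 5, 5 and 4 and ranges of 2 to 26, 2 to 24 and 2 to 20. They held 0.586%, 0.633% and 0.827% of all peaks (mean 0.682% ± 0.128, SD, n = 3). Of 145262 reproducible sites, 1238 (0.852%) were in members, with a median of 4 per member and a range of 1 to 14.

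The members with the most peaks were those near Zbp1 and at Pmepa1, Trib1, Sox2 and Fos. Trib1, a pseudokinase that directs protein breakdown, had 17, 15 and 13 peaks and hotspots of 6057, 3373 and 3286 bp. The region 9371 bp from Sox2 had 14, 14 and 12 peaks. At the other end, Nr2c2, a nuclear receptor gene, had 2 peaks in each replicate in hotspots of 2107, 2136 and 2391 bp.

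The density of peaks in members was below that in short regions. The median was 1.73, 1.76 and 1.50 peaks per kb, compared with 1.61, 1.62 and 1.38 in regions of 1 to 2 kb and 2.24, 2.24 and 2.20 in shorter ones. The shorter ones had a median length of 489 bp and a median of 1 peak, which by itself gives a high density. The strongest peak of a member had a median deposited score of 140, 136 and 133 out of a highest value of 150, which placed it at the 98.5, 98.5 and 98.4 percentile of its replicate's peaks. In regions of 1 to 2 kb the percentiles were 97.0, 97.0 and 96.0. Those regions had medians of 3, 3 and 2 peaks, and the strongest of more peaks tends to rank higher by number alone. The −log10 q of the hotspots was at its cap of 100 in every replicate for all 312 members, so it did not order them.

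Around the start site, members extended further into the gene than away from it. Distances were taken from a single start per gene, that of the best-ranked principal transcript and, among equals, the most upstream. Other starts of equal rank then lie downstream, and their part in this lean was not tested. Over 211 genes that were alone in their member, the region reached a median of 1208 bp upstream and 1658 bp downstream, and 71.1% reached further downstream. By replicate the share was 68.2%, 66.8% and 65.9%. Regions of 1 to 2 kb had the same lean, with 678 bp upstream, 1017 bp downstream and 76.3% of 3088 genes reaching further downstream. At 2000 bp downstream of the start site 40.8%, 33.2% and 29.9% of the 211 genes had a hotspot, and at 2000 bp upstream 22.7%, 19.0% and 17.5% had. The downstream value was the higher in every replicate.

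**Figure D5:**
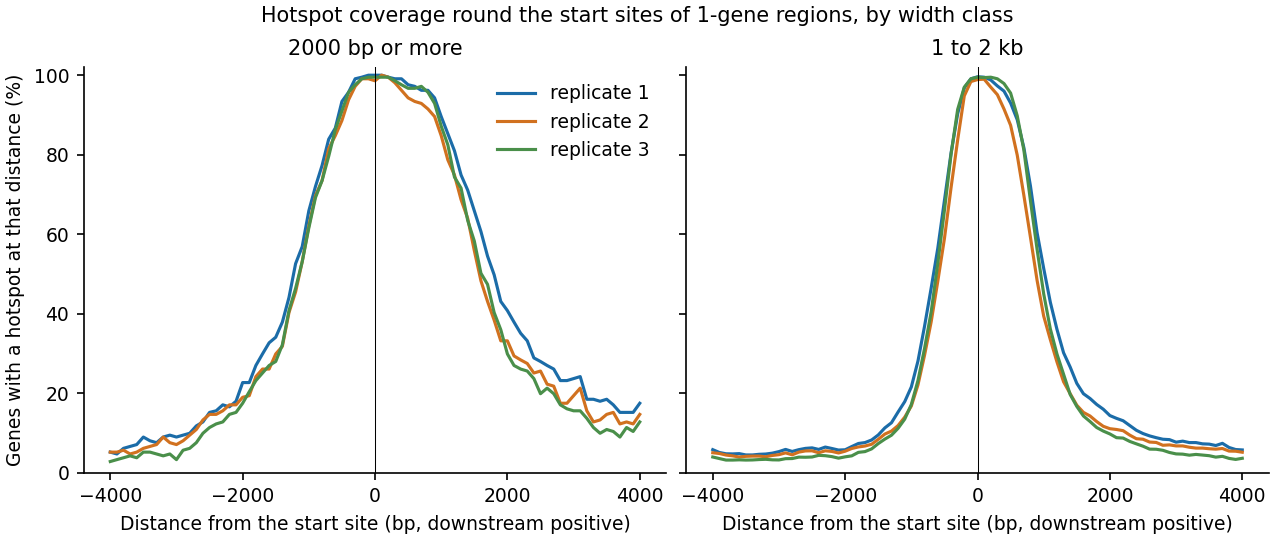
Percentage of genes with a hotspot (vertical axis) at each distance from the start site in base pairs (horizontal axis, downstream positive), a line for each replicate, for 211 genes alone in a member (left) and 3088 genes alone in a region of 1 to 2 kb (right). Both sets lean downstream, and at 2000 bp downstream the lines are at 40.8%, 33.2% and 29.9% for the members.

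Single genes leaned either way. Ubtf reached 1343 bp upstream and 3599 bp downstream, and Pmepa1 1355 and 7716 bp. Arid2 reached 3841 bp upstream and 1803 bp downstream, and Sox2 2673 and 1822 bp. Jun was nearly even, with 2484 and 2510 bp.

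The sequence of the members was CG-rich. Their median GC content was 58.6% and the median ratio of observed to expected CpG was 0.732. A region was called CpG-rich where the 1 kb round its middle had a ratio over 0.6 and a GC content over 50%; this held for 80.8% of members, 62.3% of regions of 1 to 2 kb and 5.98% of shorter ones. At promoters alone the first 2 classes were alike, 87.8% and 87.4%. Away from promoters they were 34.1% of 41 members and 7.92% of 1882 regions.

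Motif matches followed the same division. They were counted in the 150 bases round reproducible sites, 829 at promoters and 409 away from them in the members. Away from promoters, GGGCGG of the SP and KLF factors was in 24.2% of the members' sites and in 5.40% of all 119984 sites in shared regions, and the AP-1 consensus TGANTCA was in 10.3% against 21.4%. The TEAD consensus GGAATG was in 13.0% against 19.7%, and the NFI consensus TTGGCA in 10.5% against 18.0%. In regions of 1 to 2 kb away from promoters, GGGCGG was in 12.2% of sites and TGANTCA in 17.6%. At promoters GGGCGG was in 48.9% of the members' sites and in 44.6% of all 24898 sites. It was in 52.1% of promoter sites in regions of 1 to 2 kb, so the members were not the highest class there. TGANTCA at promoters was in 3.38% of the members' sites, 4.23% of those in regions of 1 to 2 kb and 5.69% of all. Sites of a member share its base composition and are not independent, so these shares are given with no test.

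The members did not stand in repeated sequence. No member had more than 50% of its bases masked as repeats, and none had a match of 500 bp or more to the mitochondrial genome. One member, a region of the X chromosome 2939 bp from Mid1 (4599, 4581 and 2149 bp), had near-identical copies elsewhere in the assembly, 2 of at least 1000 bp at 95% identity or more, and its reads could have come from any of them. Members were on every autosome and on X, which held 4; chromosomes 7 and 10 held the most with 26 each. Outside the autosomes and X, 1 merged region met the width rule, a stretch of the mitochondrial genome of 3055 bp in every replicate.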

How the data were processed

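DNase-seq libraries of 3 replicates of 1 group were used. Per the labels and the deposited descriptions, every replicate has its own list of peaks and of hotspots on mm10, made from the filtered alignments of that library. The sources used here name no aligner, caller or version. The deposited hotspot value is a −log10 q from 1.30 to 100, and the deposited peak score is a whole number from 1 to 150 whose meaning is not stated; the score was used only within a replicate. Read depth is unknown, so no interval that needs it is given.

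Hotspots were merged across replicates at an overlap of 1 bp and selected on a width of 2000 bp. Peaks that repeated a position (63) were dropped, and a peak was given to the region it overlapped. Genes are the 21646 protein-coding genes, 1 per symbol, of GENCODE M21. Chromosome lengths were checked against GRCm38.p6. Older symbols were matched through RefSeq synonyms. Sequences are from RefSeq. Copies were sought with BLAST+ 2.17.0, and tables were made with Python 3.11.15, numpy 2.4.6 and pandas 2.3.3; merging, promoter calls and peak assignment were tested on simulated lists.

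With a single group there is no comparison between conditions, and no test was run. The regions, the 14 gene lists (338 entries), the 32 families and the 16 motifs were chosen with earlier results of these data known. Members named in the text are the 10 widest in their narrowest replicate, the 5 with most peaks, the 8 widest away from coding and long noncoding starts, the 5 covering most genes, up to 4 of a list, 3 on either side of the threshold and the 5 with the largest ratio between replicates; others were named after their values were seen. Alternatives changed the width, the merging, the overlap of long hotspots, the −log10 q minimum, the number of hotspots per replicate, the promoter window, the gene types and the peaks counted, and left out each replicate.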

Additional observations from a re-analysis of the deposited data

How the results depend on the processing

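The 312 regions, their promoter share of 86.9%, their median of 5 peaks (mean over replicates, then median over members) and their 316 genes were recomputed in 43 alternatives, of which 28 stayed within 1.5 times the count or within 1 SD of the replicates. With a width of 1500 bp there were 1378 regions, 3.67 peaks and 1363 genes, and with 3000 bp 35 regions, 91.4% at promoters, 6.67 peaks and 34 genes. With the 445 widest hotspots from each replicate there were 103 regions, 6.33 peaks and 105 genes. The promoter share was 81.4% from the middle of the region, and the upper 50% of peaks by score gave 4.33 peaks. Leaving out each replicate in turn gave 330 to 826 regions, 79.7% to 88.6% at promoters, 4.50 to 5 peaks and 333 to 834 genes; the highest numbers of regions and genes were those without replicate 2 and the lowest promoter share that without replicate 3, since 54.2% of the 83 regions that missed the rule only there were at promoters. Fewer replicates must meet the rule in these cases, which by construction gives more regions. No paired analysis was possible because there is 1 group. Wide regions were counted at the resolution of the deposited hotspots, and a gap of a few bases between hotspots can end a region; depth per library is unknown, so the small number of wide hotspots in replicate 2 cannot be set against it.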
